A study of Danio rerio with 8 samples.

Results

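The *etv* and *sprouty* feedback genes induced by fibroblast growth factor (FGF) signalling were examined in rods and other cells of the adult zebrafish retina. The set has 8 named genes, *etv4*, *etv5a*, *etv5b*, *spry1*, *spry2*, *spry4*, *dusp6* and *il17rd*, of 33737 gene IDs counted in the series. They were found by their symbol in the study's annotated table of 13325 genes, which held 7 of them, whereas *spry1* had no entry and has no value here. The genes were picked from the values of these same libraries (GFP+ against GFP- levels within each fish, and levels by library title), so the differences given for them below are a description. No p-value is given for them, and counts of calls among them stand only beside the share or number called over all genes. Of the 7 genes found, 6 had enough counts to enter the fit across all 12564 genes, and *il17rd* did not.

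FGF ligands bind receptor tyrosine kinases and switch on RAS and the RAF, MEK and ERK kinase cascade. The Etv4 and Etv5 proteins are ETS-family transcription factors whose genes are turned on by this cascade, and in the zebrafish embryo their transcripts are widely used to show where FGF signalling is active. The same cascade also induces its own inhibitors: the Sprouty proteins, the ERK phosphatase Dusp6 and the membrane protein Il17rd (also called Sef). In the retina, FGF signalling is known for its part in early patterning and neurogenesis and in the survival of photoreceptors.

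The GFP+ libraries hold rods and the GFP- libraries hold the remaining retinal cells, sorted by fluorescence-activated cell sorting (FACS) from the transgenic line *xops:eGFP*, in which eGFP is driven in rods by the rod opsin promoter of *Xenopus*. All 4 fish carried this transgene and were dark-adapted before the retina was removed. Both retinas of a single fish, dissociated with trypsin and papain, gave 1 GFP+ and 1 GFP- library, hence 8 libraries in 4 pairs. RNA was amplified before sequencing on an Illumina MiSeq. The library titles name the fish 1, 2, 2_2 and 5_2. What the suffix _2 of the last pair of fish means is not stated in the labels, nor is the sex of the fish. The paper used female and male fish and made sex part of its design. Whether sex differs between the fish with and without the suffix is not known here.

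The GFP+ libraries held 1722055 to 2206479 counts on genes each, and the GFP- libraries 1865121 to 2514874. Levels are given as CPM, that is, counts relative to the library size after scaling with edgeR's TMM factors. Where no read was counted the limit is 3 counts, which is 0.990 to 2.14 CPM in GFP+ libraries and 0.945 to 3.13 CPM in GFP- libraries (counting error only). All 15 tested rod markers were higher in GFP+ libraries and all 16 tested cone markers were lower, at a false discovery rate (FDR) under 0.01 in edgeR's quasi-likelihood test. The summed level of the rod list was 42629 to 76220 CPM in GFP+ libraries and 3359 to 15951 CPM in GFP- libraries, so the GFP- cells were not free of rod transcripts. Mitochondrial genes took a larger share of the counts in libraries with the suffix _2: 28.9% to 39.3% with it and 12.4% to 19.1% without it among GFP+ libraries, and 58.7% to 66.1% with it and 25.0% to 26.9% without it among GFP- libraries. In sorted pools such as these, fewer cells of a type and less RNA per cell cannot be told apart.

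The 3 *etv* genes differed from each other in where their transcripts lay: *etv4* was found almost only in GFP- libraries, *etv5a* was higher in GFP+ cells of all 4 fish, and *etv5b* depended on the fish. *etv4* encodes an ETS activator and lies on chromosome 12 (Zv9, 29107126 to 29139725). Its level was 0, 1.73, 0 and 0.457 CPM in GFP+ cells of fish 1, 2, 2_2 and 5_2, and the matching GFP- libraries held 5.04, 7.74, 5.21 and 3.88 CPM. The populations did not overlap, and *etv4* was lower in the GFP+ library in 4 of 4 fish. These levels rest on few reads, with 5 counts summed over the GFP+ libraries and 47 over the GFP- libraries. *etv4* passed the low-count filter only through its GFP- libraries (16, 20, 5 and 6 counts, against 0, 4, 0 and 1 in GFP+ libraries). Its direction and its lack of overlap are thus in part tied to that filter. The fitted log2 fold change was -3.55 (standard error 1.24), and the mean was 0.546 ± 0.816 CPM in GFP+ libraries and 5.47 ± 1.63 CPM in GFP- libraries (SD, n = 4 each).

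*etv5a*, 1 of a pair of zebrafish *etv5* genes, lies on chromosome 9 (Zv9, 23665132 to 23682366). Its GFP+ libraries held 173, 145, 148 and 231 CPM in fish 1, 2, 2_2 and 5_2, against 84.1, 97.2, 91.7 and 131 CPM in the GFP- libraries. Every GFP+ library lay above every GFP- library. Within a fish, the GFP+ level was 1.49 to 2.06 times the GFP- level. The fitted log2 fold change was 0.78 (standard error 0.26), and the mean level was 174 ± 40.0 CPM in GFP+ libraries and 101 ± 20.9 CPM in GFP- libraries (SD, n = 4 each).

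*etv5b*, the other gene of the pair, lies on chromosome 6 (Zv9, 13942620 to 13950743). In GFP+ libraries of fish 1, 2, 2_2 and 5_2 it was at 247, 102, 89.3 and 165 CPM, against 659, 652, 55.3 and 153 CPM in the GFP- libraries. The GFP- libraries of fish 1 and 2 stood far above all other libraries, and the rest overlapped. The level in GFP+ cells was 0.375 and 0.156 times that in GFP- cells in fish 1 and 2, but 1.62 and 1.08 times in fish 2_2 and 5_2. The fitted log2 fold change over the 4 fish, -0.85 (standard error 0.40), therefore averages fish that moved in opposite directions, and without fish 2 it was -0.24.

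**Figure D1:**
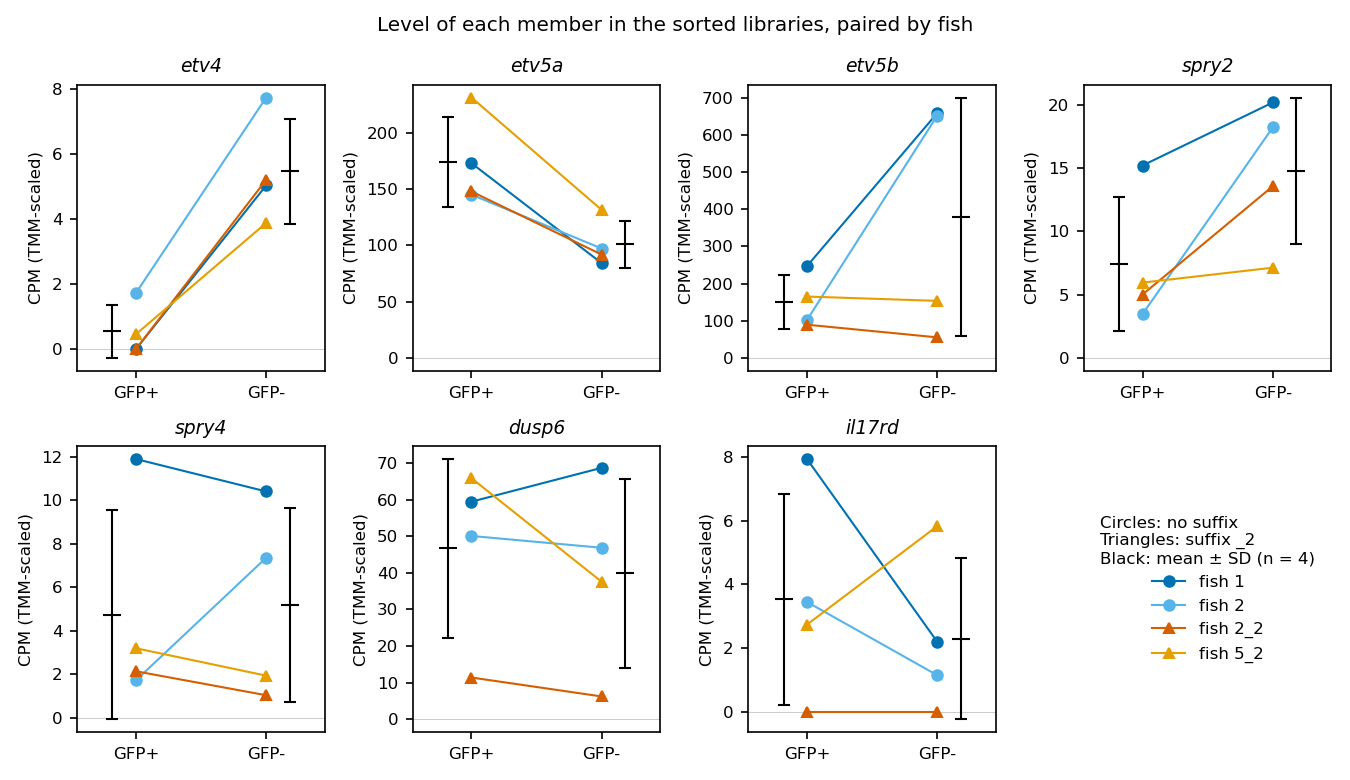
TMM-scaled CPM of each of the 7 genes found, in GFP+ (left) and GFP- (right) libraries. Lines join the libraries of a fish, circles are fish without the title suffix, triangles are fish with _2, and black bars give the mean ± SD of 4 libraries. *etv4* and *etv5a* are the genes whose populations do not overlap, and the 2 high GFP- values of *etv5b*, 659 and 652 CPM, belong to fish 1 and 2.

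The Sprouty genes encode inhibitors that act between the receptor and the kinase cascade. *spry2* lies on chromosome 1 (Zv9, 4170919 to 4175021). Its level was 15.2, 3.45, 5.00 and 5.94 CPM in GFP+ cells of fish 1, 2, 2_2 and 5_2, and 20.2, 18.2, 13.6 and 7.12 CPM in the GFP- libraries. *spry2* was lower in the GFP+ library in 4 of 4 fish. The populations overlapped because the GFP+ library of fish 1 lay above the GFP- libraries of fish 2_2 and 5_2. The size of the difference varied widely, from 0.190 times the GFP- level in fish 2 to 0.835 times in fish 5_2, with a fitted log2 fold change of -1.08 (standard error 0.61).

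*spry4* lies on chromosome 21 (Zv9, 43164027 to 43169541). Its level was 11.9, 1.73, 2.14 and 3.20 CPM in GFP+ libraries of fish 1, 2, 2_2 and 5_2, and 10.4, 7.36, 1.04 and 1.94 CPM in GFP- libraries. The populations overlapped over nearly their whole range: the GFP+ library of fish 1 stood apart from the other GFP+ libraries, and fish 2 was the fish in which the GFP- level was the higher. The fitted log2 fold change was -0.15 (standard error 0.91). It was 0.53 without fish 2, and 0.18 without scaling factors, where the median of all genes moved to 0.32. *spry4* thus has no settled direction here. Its 4 GFP+ libraries held 50 counts in all and its 4 GFP- libraries 56.

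*dusp6*, which encodes a cytoplasmic phosphatase that removes the activating phosphates of ERK, lies on chromosome 25 (Zv9, 18813588 to 18817793). Its level was 59.4, 50.1, 11.4 and 65.8 CPM in GFP+ libraries of fish 1, 2, 2_2 and 5_2, and 68.7, 46.8, 6.26 and 37.6 CPM in GFP- libraries. Both libraries of fish 2_2 were low and the populations overlapped. The difference within a fish lay between 0.865 and 1.83 times, and the fitted log2 fold change was 0.32 (standard error 0.35).

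*il17rd* encodes a membrane protein that inhibits FGF signalling and lies on chromosome 11 (Zv9, 43722036 to 43799988). It was at 7.92, 3.45, 0 and 2.74 CPM in GFP+ libraries of fish 1, 2, 2_2 and 5_2, and at 2.21, 1.16, 0 and 5.83 CPM in GFP- libraries. The populations overlapped, and fish 2_2 had no count in either library. With 38 counts over the GFP+ libraries and 19 over the GFP- libraries it did not pass the filter on low counts. Where no filter was set, its log2 fold change was 0.79 (standard error 1.23).

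Over the 6 genes that passed the filter, the median log2 fold change was -0.50, against -0.02 over all 12564 genes tested, and 2 of the 6 were positive. The populations did not overlap for 2 of the 6 (*etv4* and *etv5a*), where 14.5% of all genes tested had no overlap. At an FDR under 0.05, edgeR called 1 of the 6 (*etv5a*), where it called 15.2% of all genes tested. At an FDR under 0.01, edgeR and DESeq2 each called 0 of the 6, where edgeR called 1107 of all genes and DESeq2 1482. Since the genes were chosen by this contrast, nothing is read from these counts.

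**Figure D2:**
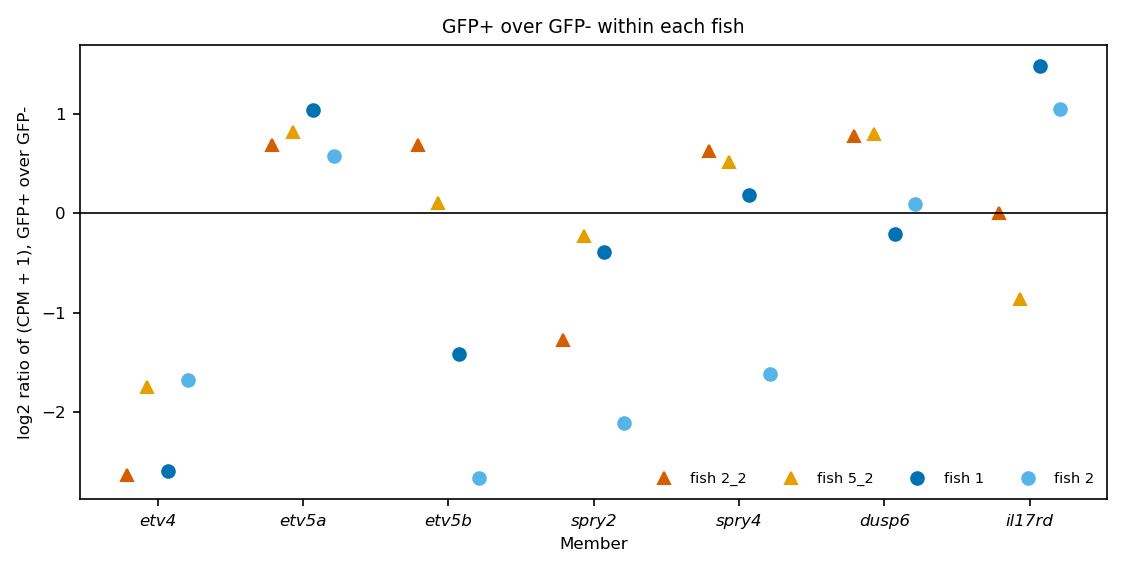
The log2 ratio of GFP+ over GFP- levels within each fish (CPM + 1) for the 7 genes found. Points above 0 are higher in GFP+ libraries; triangles are fish with the title suffix _2 and circles are fish without it. All 4 fish lie above 0 for *etv5a* and below 0 for *etv4* and *spry2*, whereas for *etv5b* the fish with the suffix lie above 0 and those without lie below it.

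The libraries were next compared by title, with the 2 fish whose titles end in _2 against the 2 without the suffix. Each comparison is between 2 and 2 fish, so the suffix and the individual fish cannot be told apart. In GFP- libraries, *etv5b* averaged 104 CPM with the suffix and 655 CPM without it, a level 6.28 times as high without the suffix. The fitted log2 difference (_2 minus none) was -2.64 (standard error 0.55). In GFP+ libraries *etv5b* averaged 127 CPM with the suffix and 174 CPM without it, and the fitted log2 difference was -0.45 (standard error 0.52), with overlapping libraries. The high *etv5b* level was thus measured in GFP- cells of fish 1 and 2.

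The levels of *spry4*, *dusp6* and *spry2* were also lower in GFP- libraries with the suffix. *spry4* averaged 1.49 CPM with it and 8.88 CPM without it, with a log2 difference of -2.48 (standard error 1.28). *dusp6* averaged 21.9 CPM with it and 57.8 CPM without it, with a log2 difference of -1.35 (standard error 0.76). The *dusp6* difference rested largely on the library of fish 2_2 (6.26 CPM, against 37.6 CPM in fish 5_2): it was -0.63 without fish 2_2 and -3.15 without fish 5_2. The *etv5b* difference was -2.10 without fish 2_2 and -3.52 without fish 5_2. *spry2* averaged 10.3 CPM with it and 19.2 CPM without it, with a log2 difference of -0.91 (standard error 0.85). Together with *etv5b*, these were the 4 of 6 genes whose GFP- libraries did not overlap by suffix. Among all genes tested, 46.4% did not overlap in this comparison of 2 with 2 libraries. *il17rd* went the other way, with a mean of 2.91 CPM with the suffix and 1.68 CPM without it, but its libraries overlapped. *etv4* and *etv5a* overlapped, with log2 differences of -0.49 (standard error 1.40) and 0.30 (standard error 0.39).

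Within GFP+ libraries, none of the 6 genes separated by suffix, where 42.7% of all genes tested did. Their log2 differences ranged from -1.43 (*etv4*, standard error 1.93) to 0.26 (*etv5a*, standard error 0.39). With 1 fish left out, the sign changed for *etv5b* (0.32) and *spry2* (0.65) without fish 1, for *dusp6* (0.24) without fish 2_2, and for *etv5a* (-0.10) without fish 5_2. The GFP+ library of fish 1 was the highest of its population for *etv5b*, *spry2*, *spry4* and *il17rd*, while that of fish 5_2 was the highest for *etv5a* and *dusp6*. *il17rd*, outside the fit, averaged 1.37 CPM with the suffix and 5.69 CPM without it in GFP+ libraries, and its values did not overlap there.

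The median log2 difference by suffix over the 6 genes was -0.63 in GFP+ libraries and -1.13 in GFP- libraries, against medians of -0.05 and -0.06 over all genes tested. At an FDR under 0.05, edgeR called 0 of 6 genes in GFP+ libraries, and 0 had an unadjusted p under 0.05. Among all genes, edgeR called 0.541% and put 13.5% under that p. In GFP- libraries edgeR called 1 of 6 (*etv5b*), where it called 0.669% of all genes. At an FDR under 0.01 in GFP- libraries, DESeq2 called 1 of 6 (*etv5b*), where it called 200 of all genes. At that FDR edgeR called 0 of 6 and 21 of all genes. The choice of genes used these comparisons too. Without scaling factors, the median of all genes moved to -0.70 in GFP+ libraries and -1.14 in GFP- libraries. *etv5a* then had log2 differences of -0.38 and -0.76, the opposite sign. Both still lay above the median of all genes, as the *etv5a* differences did with TMM factors. Relative to the shift of that median, *etv5b* at -3.65 in GFP- libraries remained the lowest of the 6.

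Several marker lists also separated by suffix in GFP- libraries, where 46.4% of all single genes tested did not overlap. The rod list summed to 14077 to 15951 CPM with the suffix and 3359 to 4907 CPM without it, with all 15 listed genes found and tested, and all 15 with positive log2 differences. The bipolar cell list summed to 1135 to 2324 CPM with the suffix and 2909 to 2972 CPM without it. The cone list summed to 28278 to 33493 CPM with the suffix and 39683 to 54922 CPM without it. The pigment epithelium list (8 of 11 genes found, 2 tested) summed to 14.6 to 21.4 CPM with the suffix and 65.5 to 66.2 CPM without it. The oligodendrocyte list (7 of 8 genes found) summed to 131 to 216 CPM with the suffix and 86.7 to 99.9 CPM without it. The summed levels of the amacrine and horizontal, ganglion, and endothelial and pericyte lists did not overlap by suffix either, by smaller margins. The Müller glia list, of which 14 of 16 genes were found, did overlap: it summed to 1844 to 2507 CPM with the suffix and 1795 to 1892 CPM without it. The microglia, erythrocyte and cycling cell lists overlapped as well. Separation by suffix was not confined to GFP- libraries. In GFP+ libraries the rod, bipolar cell and pigment epithelium lists, among others, separated too. There the pigment epithelium list was higher with the suffix, at 26.4 and 31.1 CPM, against 5.94 and 4.32 CPM without it. The part of these cell types, and of the mitochondrial share, in the *etv5b*, *spry4* and *dusp6* values was not tested.

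**Figure D3:**
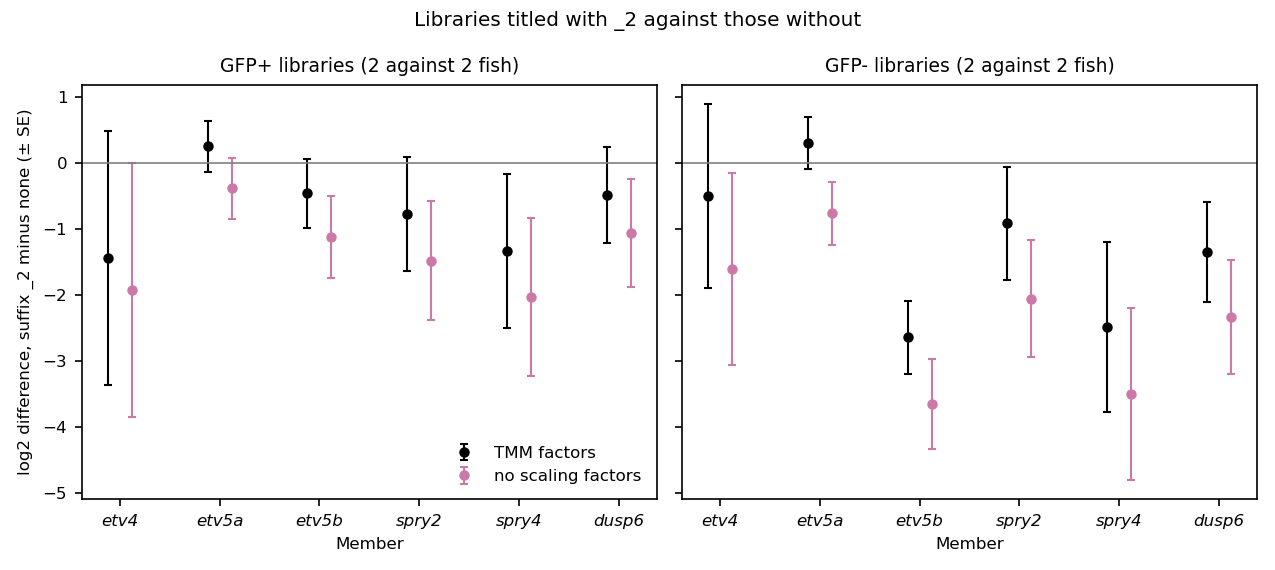
Fitted log2 difference between libraries with the title suffix _2 and those without (± standard error), for the 6 genes that passed the filter, in GFP+ (left) and GFP- (right) libraries. Black points use TMM factors and pink points use library size alone. *etv5b* in GFP- libraries lies at -2.64 with TMM factors and -3.65 without scaling, and *etv5a* is the gene that changes sign between the 2 scalings in both populations.

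The GFP+ against GFP- difference of each gene was also compared between the fish with and without the suffix. For *etv5b* this difference of differences was 2.42 on the log2 scale (standard error 0.48), and it lay between 1.77 (without fish 2) and 3.05 (without fish 1) under the alternatives tried. The other 5 genes ranged from -0.51 (*etv4*, standard error 2.63) to 1.63 (*spry4*, standard error 1.96). At an FDR under 0.05, edgeR called 1 of 6 genes (*etv5b*), where it called 0.167% of all genes tested. At an FDR under 0.01, DESeq2 called 1 of 6 (*etv5b*), where it called 44 of all genes. At that FDR edgeR called 0 of 6 and 5 of all genes. The rule that chose the genes names both of the contrasts that make up this value, so it is a description.

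Across the 8 libraries, the log2 CPM of the genes did not follow a single pattern. Of 15 pairs of genes, 9 had a positive Pearson correlation, with a median of 0.29. The highest was 0.87 between *etv5b* and *spry4*, and the lowest was -0.82 between *etv4* and *etv5a* (n = 8 libraries, which share fish, depth and mitochondrial share). The population and title differences that the choice of genes used were not removed before correlating, so these values partly restate them. Against the mean scaled profile of the other 5 genes, *etv5b* (0.91), *spry4* (0.81) and *dusp6* (0.63) had the highest correlations and *etv5a* the lowest (-0.41). Among 7928 other genes with a mean of at least 10 CPM, those most like the mean profile of all 6 genes were *ppiaa* (0.96), *ccz1* (0.95), *hs3st3b1a* (0.95), *C1H7orf55* (0.95) and *mt2* (0.94), over the same 8 libraries.

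The remaining genes of the pathway were taken from lists and tested across all genes. Of 24 FGF ligands listed, 8 were found by symbol, and 2 of these had enough counts to be tested (*fgf1a* and *fgf24*). Ligands without a matching symbol have no value here, so their levels are not known. Neither tested ligand passed the test, with log2 fold changes of 0.57 (standard error 1.02) and 0.18 (standard error 0.99). All 4 tested FGF homologous factors, intracellular relatives that do not act as secreted ligands, had negative log2 fold changes. None passed an FDR of 0.01 in edgeR, where 8.81% of all genes tested were called. At that FDR, 1 (*fgf11b*) passed in DESeq2, which called 1482 of all genes, against 1107 by edgeR. An unadjusted p under 0.05 was reached by 2 of the 4 in edgeR, where 26.5% of all genes tested were under it. At an FDR under 0.05, edgeR called 1 of the 4 (*fgf11b*), where 15.2% of all genes tested were called.

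The 5 tested FGF receptor genes, which encode the receptor tyrosine kinases, were all low in counts. *fgfr1a* was at 1.83 to 21.5 CPM in GFP+ libraries and 8.82 to 13.6 CPM in GFP- libraries. *fgfr1b* was at 0 to 6.91 CPM in GFP+ libraries and 0 to 10.4 CPM in GFP- libraries. *fgfr2* was at 0.457 to 5.18 CPM in GFP+ libraries and 0.774 to 12.6 CPM in GFP- libraries. The populations overlapped for each of these receptors. *fgfr3* was at 0 to 4.75 CPM in GFP+ libraries and 0 to 5.83 CPM in GFP- libraries. *fgfr4* was at 0.914 to 5.94 CPM in GFP+ libraries and 1.55 to 11.5 CPM in GFP- libraries. These overlapped as well, and 0 of the 5 passed the test in edgeR or DESeq2, with 0 at an unadjusted p under 0.05. Their log2 fold changes lay between -1.19 (*fgfr4*, standard error 1.09) and 0.10 (*fgfr1b*, standard error 1.47).

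Downstream of the receptors, 0 of 16 tested adaptor and RAS genes and 0 of 8 tested RAF, MEK and ERK kinase genes passed an FDR of 0.01 in edgeR or DESeq2. Among all genes tested, edgeR called 8.81% at that FDR. At an FDR under 0.05, edgeR called 2 of the 16 (*frs3* and *grb2b*, both lower in GFP+ libraries) and 0 of the 8. The share of all genes tested was then 15.2%. At an unadjusted p under 0.05 there were 3 and 1, where 26.5% of all genes tested were under it. Their median log2 fold changes were 0.02 and 0.16. Of 10 tested ETS factors outside the *etv4* and *etv5* group, 0 passed in edgeR, with 3 at an unadjusted p under 0.05. In DESeq2, which called 1482 of all genes at an FDR under 0.01, 2 of the 10 (*erf* and *fli1b*) passed. At an FDR under 0.05, edgeR called 2 of the 10, both lower in GFP+ libraries. No gene matched the symbol *etv1*, the remaining member of the group of ETS factors to which *etv4* and *etv5* belong.

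Of 14 other tested feedback regulators, 2 passed an FDR of 0.01 as lower in GFP+ libraries and 0 as higher, where 8.81% of all genes were called and 5.68% were called lower. Both encode nuclear MAP kinase phosphatases. At an FDR under 0.05, edgeR called 1 of the 14 higher and 3 lower, where 15.2% of all genes tested were called. An unadjusted p under 0.05 was reached by 6 of the 14, where 26.5% of all genes tested were under it. *dusp2* was at 52.8, 22.4, 39.3 and 39.3 CPM in GFP+ libraries of fish 1, 2, 2_2 and 5_2, and at 147, 181, 377 and 276 CPM in GFP- libraries. The populations were far apart, and the fitted log2 fold change of -2.63 had a standard error of 0.32 and an FDR of 3.84e-06 in edgeR. *dusp5* was at 23.8, 7.77, 14.3 and 6.40 CPM in GFP+ libraries and at 130, 60.8, 91.7 and 75.1 CPM in GFP- libraries. Its populations did not overlap either, and the fitted log2 fold change of -2.88 had a standard error of 0.35 and an FDR of 3.84e-06 in edgeR. The Sprouty-related *spred* genes and *dusp1* and *dusp4* did not pass, with log2 fold changes from -1.24 (*spred3*) to 0.50 (*dusp4*). *dusp8a*, *dusp7* and *flrt1a* did not pass either, but their populations did not overlap, where 14.5% of all genes tested had no overlap. Genes of other lists that did not pass in edgeR also had no overlap, among them *fgf11a*, *frs3*, *grb2b*, *sos2*, *elk3* and *elk4*. *dusp8a* was higher in GFP+ libraries (353 to 460 CPM, against 166 to 303 CPM in GFP- libraries). *dusp7* (14.5 to 36.1 against 37.2 to 57.3 CPM) and *flrt1a* (2.14 to 9.93 against 14.6 to 18.2 CPM) were lower.

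Immediate early genes are induced within a short time by ERK and other stimuli. They were lower in GFP+ libraries for 12 of 24 tested genes (FDR under 0.01 in edgeR), while 0 were higher. Among all genes tested, 5.68% were called lower. The median log2 fold change of the list was -1.61. For all 12, every GFP+ library lay below every GFP- library, where 14.5% of all genes tested had no overlap. These 12 had been picked as called lower in the same contrast, so the separation is no separate support. *egr2a* (2, 0, 1 and 0 counts), *egr3* (10, 2, 1 and 3) and *gadd45bb* (1, 8, 3 and 7) had few counts in GFP+ libraries. These genes passed the low-count filter mainly through their GFP- libraries. Their direction and lack of overlap are thus in part tied to that filter. *egr1*, a zinc finger transcription factor, was at 163, 73.0, 133 and 82.8 CPM in GFP+ libraries of fish 1, 2, 2_2 and 5_2, and at 485, 294, 452 and 332 CPM in GFP- libraries. The fitted difference was -1.84 on the log2 scale, with a standard error of 0.26 and an FDR of 2.37e-05 in edgeR. *egr3*, of the same family, was at 0.715 to 3.30 CPM in GFP+ libraries and 29.3 to 55.3 CPM in GFP- libraries, at a fitted log2 fold change of -4.60 (standard error 0.58).

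The orphan nuclear receptor genes *nr4a3* and *nr4a1* belonged to the same group. *nr4a3* was at 0.457 to 9.90 CPM in GFP+ libraries and 68.1 to 76.4 CPM in GFP- libraries, at a fitted log2 fold change of -4.11 (standard error 0.51). *nr4a1* was at 0 to 23.3 CPM in GFP+ libraries and 51.8 to 98.0 CPM in GFP- libraries, at a fitted log2 fold change of -3.43 (standard error 0.52). *fosl2*, an AP-1 subunit, was at 21.6 to 38.9 CPM in GFP+ libraries and 73.0 to 179 CPM in GFP- libraries, at a fitted log2 fold change of -2.01 (standard error 0.31). Without the fish as a block the count of immediate early genes fell to 3, and without fish 5_2 it was 7.

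Markers of several other cell types were lower in GFP+ libraries, while some lists overlapped between the populations. Among all genes tested, 5.68% were called lower at an FDR under 0.01. The microglia and macrophage list (14 of 15 genes found) summed to 37.2 to 240 CPM in GFP+ libraries and 1699 to 4314 CPM in GFP- libraries. Of its gene IDs, 8 (of *mpeg1*, *lcp1* and *mfap4*) had no count in any GFP+ library, but 4 of these had no count in any library at all. For those 4, the absence from GFP+ libraries says nothing about the sort. The cone list (17 of 18 genes found) summed to 6481 to 9784 CPM in GFP+ libraries and 28278 to 54922 CPM in GFP- libraries, with *opn1mw1* at 0 in GFP+ libraries. The oligodendrocyte list summed to 19.0 to 29.3 CPM in GFP+ libraries and 86.7 to 216 CPM in GFP- libraries, with 2 of 6 tested genes lower at an FDR under 0.01, and the erythrocyte list (7 of 13 genes found) to 0 to 9.90 CPM in GFP+ libraries and 106 to 352 CPM in GFP- libraries, with 4 of 6 lower. The amacrine and horizontal cell list summed to 163 to 299.6 CPM in GFP+ libraries and 450.4 to 585 CPM in GFP- libraries, with 2 of 10 tested genes lower. Of the bipolar cell list 4 of 11 tested genes were lower. Its summed levels overlapped, at 590.2 to 1159 CPM in GFP+ libraries and 1135 to 2972 CPM in GFP- libraries. Of the ganglion cell list 1 of 5 was lower, at 61.7 to 135 CPM in GFP+ libraries and 179.6 to 279 CPM in GFP- libraries. The Müller glia list overlapped, at 898 to 1986 CPM in GFP+ libraries and 1795 to 2507 CPM in GFP- libraries, with 0 of 12 tested genes called. Its overlap came from the GFP+ library of fish 1, at 1986 CPM. The median log2 fold change of this list was -0.75, with 1 of the 12 genes positive. The cycling cell list overlapped too, at 45.3 to 137 CPM and 64.6 to 85.5 CPM, with 0 of 4 called. So did the endothelial and pericyte list (0 of 5 called) and the pigment epithelium list (0 of 2 called). The part of these cells in the levels of *dusp2*, *dusp5* and the immediate early genes was not tested.

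In the comparisons by title suffix and in the difference of differences, 0 of the 83 tested genes of these lists passed an FDR of 0.01 or 0.05 in edgeR or DESeq2. At an unadjusted p under 0.05, edgeR found 9 of them within GFP+ libraries, 2 within GFP- libraries and 4 for the difference of differences, where 13.5%, 10.8% and 6.08% of all genes tested were under it. *dusp2* and *dusp5* had log2 differences by suffix of 0.99 and -0.20 in GFP- libraries.

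**Figure D4:**
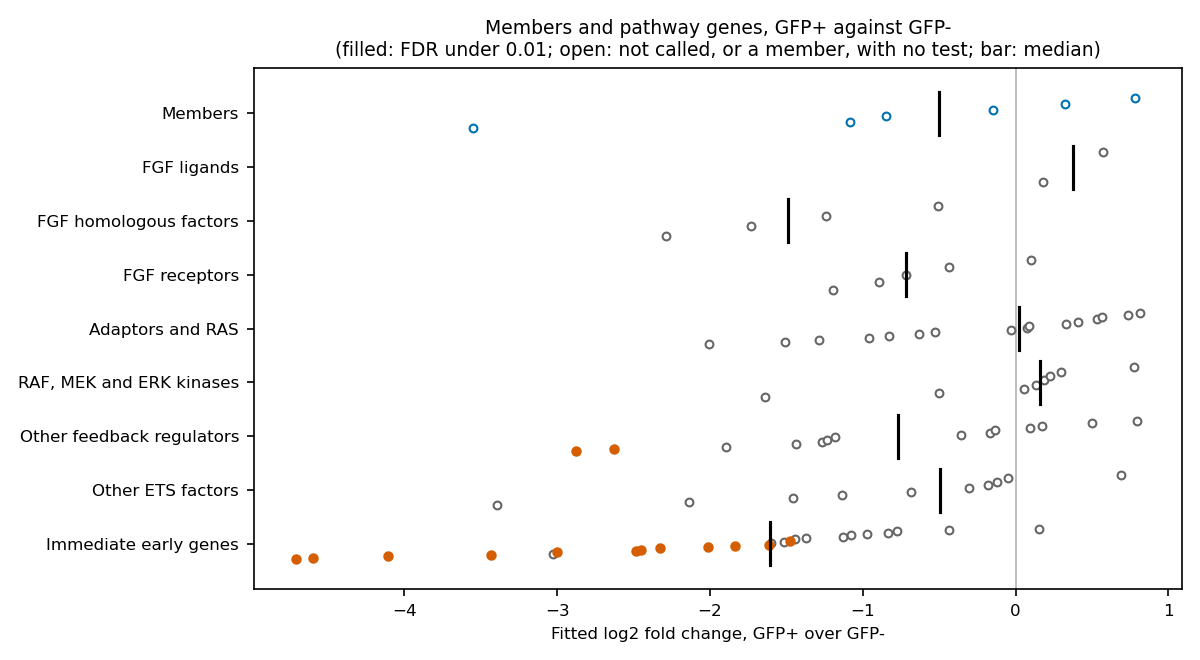
Fitted log2 fold change, GFP+ over GFP-, of the 6 chosen genes that passed the filter (top, blue, no test) and of the tested genes of 8 pathway lists. Filled orange points passed an FDR of 0.01, open points did not, and black bars are medians. The 14 filled points are *dusp2*, *dusp5* and 12 immediate early genes, all below 0.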

How the data were processed

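Per the labels and the study's methods, the authors aligned reads to Zv9 with BWA and made the deposited counts per Ensembl gene with HTSeq, as whole numbers without normalization. HTSeq's own counters of unassigned reads (34.4% to 55.3% of a library) were kept out. Symbols and gene coordinates, another deposited measure, came from the authors' annotated table, whose log2 fold changes, mean log2 CPM, likelihood ratio score, p-values and normalized signal per library (8 columns) were not used. A table of gene names supplied symbols for 10867 further IDs.

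The counts were fitted with edgeR 4.0.16 in R 4.3.3 (TMM, filterByExpr, trended dispersion, quasi-likelihood F test, Benjamini-Hochberg adjustment), with the fish as a block for GFP+ against GFP- and a model of 4 means for the title suffix. DESeq2 1.42.0 was an alternative. Standard errors are the log2 fold change over the square root of F. The methods pair the populations by fish, and deviations from population means of same-fish libraries correlated at 0.323, 0.292, 0.333 and 0.214. No libraries were identical. The fit was tested on simulated data: its first version, with 1 dispersion for every gene, failed a recovery threshold that had no basis, and it was rewritten to check signs, size of estimates and false calls, with the dispersion trend of the real libraries.

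The members and lists were chosen with earlier results of these data known, and symbols of the lists were matched without regard to case after the first run. A p planned for the difference of differences is not given for the members, a decision made after its value was seen. The rule for naming other genes covered pathway genes at an FDR under 0.01 (at most the 5 with the smallest p per list and direction). It also covered the detected FGF receptors and the 5 genes most like the members' mean profile. Further genes are named outside that rule: the tested ligands, ends of a range, genes without overlap, calls at an FDR under 0.05, calls by DESeq2 alone, and a flagged gene. The FDR of 0.05 was added after seeing values. Alternatives covered the block, tool, scaling, filter, libraries in the fit, each fish left out and, chosen after seeing the data, leaving out mitochondrial genes. Promoter sequences were not analysed here.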

Additional observations from a re-analysis of the deposited data

Results flagged for a closer look

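Among 21 genes examined in each population (42 groups of 4 libraries), 2 had a library far from the other libraries of its population, and chance gives such a gap in about 1 group in 20. For *spry4* in GFP+ libraries, the gap between fish 1 (11.9 CPM) and the nearest library took 0.855 of the whole range. For *fosl1a* in GFP+ libraries, the gap took 0.843 of the range. The GFP+ against GFP- difference of *etv5b* went in opposite directions by title suffix: both fish with the suffix were higher in GFP+ libraries and both fish without it were lower, with a difference of differences of 2.416 on the log2 scale. The fit across all genes called this difference at an FDR under 0.05 in edgeR, and since the gene was chosen by these values the call is no independent support.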

How the results depend on the processing

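The 1107 genes called between GFP+ and GFP- libraries became 187 without the replicate block, and 509 to 921 with 1 fish left out. The pathway genes called (14) became 5 without the block and 9 to 12 with 1 fish left out, and the immediate early genes called lower (12) became 3 and 7 to 10. The suffix comparison called 10 genes within GFP+ libraries, against 182 with DESeq2, 1 without scaling factors, 203 without the low-count filter, 0 in a fit of the GFP+ libraries alone, and 0 to 30 with 1 fish left out. Within GFP- libraries it called 21, against 200, 5, 211, 4 and 0 to 63 under the same settings. The difference of differences called 5 genes, against 0 without the block, 44 with DESeq2, 18 without the filter, 19 without mitochondrial genes, and 3 to 27 with 1 fish left out. The cause of these shifts was not tested. Without scaling factors, 60.4% of GFP+ against GFP- calls were higher, against 35.5% with TMM, and the median of all genes moved to 0.32.

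*etv5a*, *etv5b*, *spry2* and *dusp6* kept the sign of their GFP+ against GFP- log2 fold change in all 10 alternatives, *etv5b* between -1.35 and -0.24. *etv4* kept its sign in the 7 alternatives that gave a value. It had none without the block, without fish 1 or without fish 2. *spry4* lay between -0.40 and 0.53. Of the alternative values for the chosen genes, 199 moved by less than the gene's own spread and 23 by more. That spread was the SD of the log2 ratios within fish. For the suffix comparisons it was the pooled SD of log2 levels within population and suffix. For *etv5b*, whose fish went in opposite directions, the SD of the ratios was wide (1.51), so a small count of moves says little there. Of those for the called pathway genes, 112 kept their call and 25 lost it, with none reversed. With few counts, *etv4*, *spry4* and *il17rd* are limited by depth.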
